A study of Gallus gallus with 6 samples.

Results

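The genes described here are 10 genes of T cells, their costimulatory and checkpoint proteins and their cytotoxic effectors, taken by name from a table of 17623 genes measured in the ileum of Taiping chickens. The table gives 9 of them under their own symbol (CD3E, CD4, CD8A, CD28, ICOS, CTLA4, GZMA, EOMES and IL2RA). CD274 has no symbol there and was found through the NCBI gene identifier in its description. Of 3 rows called CD8A, the one that carries the CD8A gene identifier is used, and the other 2 held at most 16 reads in any library. All 10 had enough reads to be among the 13774 genes tested.

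The study compared ileum of chickens with and without a synbiotic supplement, that is, probiotic bacteria together with fructo-oligosaccharide (FOS), a fermentable fibre. Its control group, CT (3 libraries), ate corn and soybean feed without the supplement. Its other group, MP_FOS (3 libraries), had the basal feed and, per litre of water, 2 mL of probiotics and 1 mL of FOS. All 6 libraries are labelled as ileum of male Taiping chickens aged 2 months, and the labels do not say whether each replicate is a separate bird. A p-value thus reflects only how these samples varied, which may be in part technical. Total counts ran from 11833015 (MP_FOS replicate 3) to 18106651 (CT replicate 3) per library, so that 1 read stood for 0.0531 to 0.0843 normalised CPM (read counts scaled to library size).

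The libraries do not all go with their label. Transcripts of the female-specific W chromosome, read here through HINTW, reached 1846 to 2804 reads in 4 libraries and at most 3 reads in CT replicate 2 and MP_FOS replicate 2, although all are labelled male. Each diet thus had 2 libraries with these transcripts and 1 without, so the 3 libraries of a diet did not all come from the same bird. GZMA and CD274 lie on the Z chromosome in the reference annotation. Over 569 tested Z-linked genes, the library without W transcripts exceeded the mean log2 level of the other two of its diet by a median of 0.47 (CT) and 0.44 (MP_FOS) on the log2 scale, against −0.01 and 0.01 over autosomal genes. Epithelial genes were abundant in every library (summed CPM of the 10 markers from 12000 to 18100), as fits the tissue label.

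T cells recognise antigen through a receptor whose signal passes through the CD3 chains, and CD4 or CD8 helps them read the presenting molecule. CD28 and ICOS add an activating signal when they meet CD80 or CD86 and ICOSLG on presenting cells, whereas CTLA4 competes for the CD28 ligands and restrains the response, and CD274 (PD-L1) on presenting or epithelial cells restrains T cells through PDCD1. Cytotoxic T cells and natural killer cells kill with granzymes such as GZMA, under transcription factors that include EOMES, and IL2RA, a chain of the interleukin 2 receptor, appears on activated and regulatory T cells. The small intestine holds many such cells in its epithelium and lamina propria.

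Of the general T cell markers, CD3E stood at nearly the same mean level on both diets, CD4 was somewhat lower and CD8A somewhat higher in MP_FOS, while CD274, GZMA and CTLA4 had higher means in MP_FOS ileum, mainly through replicates 2 and 3. With edgeR's quasi-likelihood test and Benjamini-Hochberg adjustment over all genes, 0 of the 10 genes passed an adjusted p of 0.05, as did 0.0% of the 13774 genes tested (smallest adjusted p = 0.445). At an unadjusted p under 0.05 there were 4 of the 10 genes (CD274, CTLA4, GZMA and CD8A, all higher in MP_FOS), against 10.6% of all genes tested, of which 5.72% were higher and 4.86% lower in MP_FOS. DESeq2 called 1 of the 10, CD274, against 0.778% of the genes for which it gave an adjusted p. The diets did not overlap in 2 of the 10 genes (CTLA4 and CD8A, both higher in MP_FOS), which is near the background of 16.7% of all genes tested (8.2% higher, 8.49% lower).

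**Figure D1:**
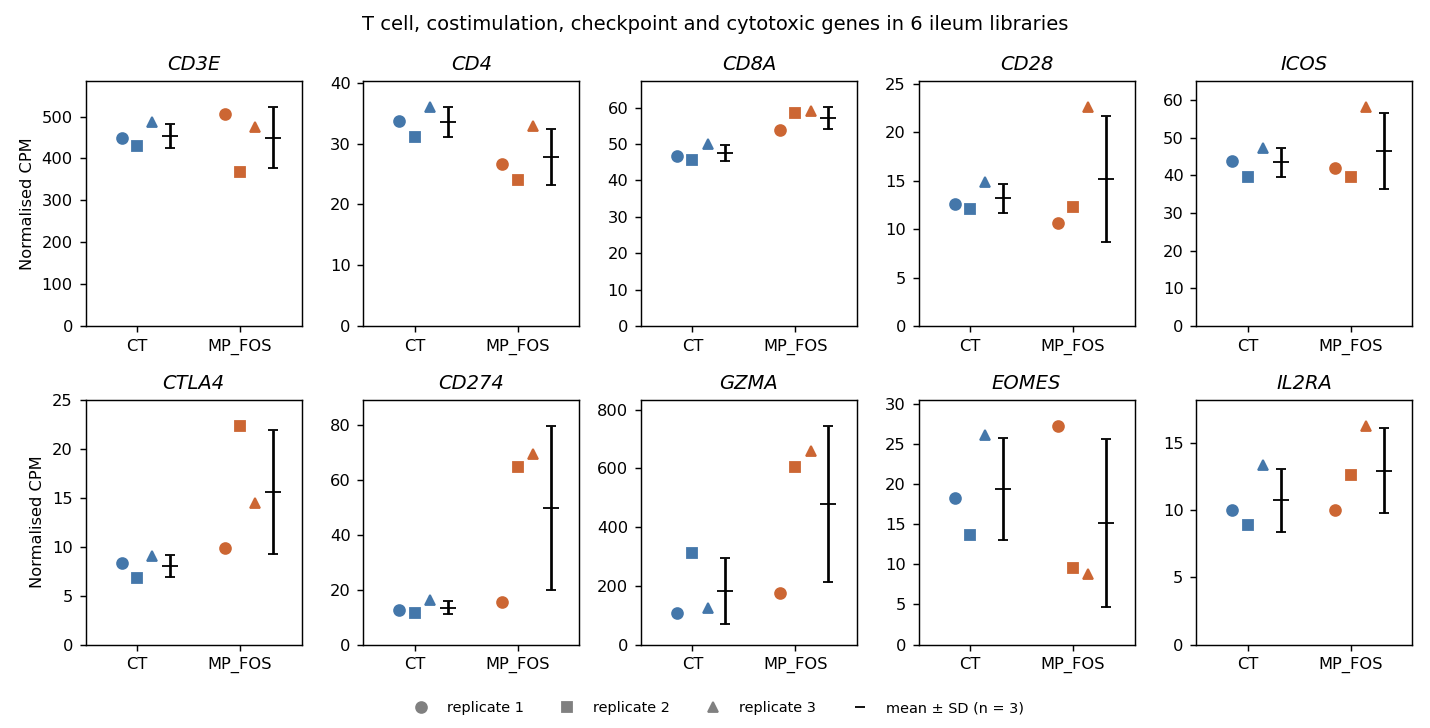
Normalised CPM (vertical axes, each from 0) of the 10 genes in the 3 CT and 3 MP_FOS libraries, with point shapes for replicate numbers and a black mark for the mean ± SD of each diet. For CD274 and GZMA, MP_FOS replicates 2 and 3 lie above every other library, whereas for CD3E the diets overlap.

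CD3E (ENSGALG00000007416), a signalling chain of the T cell receptor complex, had 448, 429 and 486 CPM in CT replicates 1, 2 and 3 and 507, 367 and 474 CPM in MP_FOS replicates 1, 2 and 3. The MP_FOS libraries thus lay on both sides of the CT range. The log2 fold change (MP_FOS minus CT) was −0.02 ± 0.16 (SE, edgeR adjusted p = 0.984). In whole tissue, fewer T cells and less of a transcript per T cell cannot be told apart.

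CD4 (ENSGALG00000014477), the co-receptor of helper T cells, had 33.8, 31.1 and 36.0 CPM in CT and 26.6, 24.0 and 33.0 CPM in MP_FOS. Replicates 1 and 2 of MP_FOS lay below all CT libraries and replicate 3 lay within their range (log2 fold change −0.27 ± 0.15, edgeR adjusted p = 0.55). CD8A (ENSGALG00000038559), the alpha chain of the co-receptor of cytotoxic T cells, which some natural killer cells also carry, had 46.7, 45.7 and 49.9 CPM in CT and 53.7, 58.6 and 59.0 CPM in MP_FOS. Every MP_FOS library was above every CT library, by a small step (log2 fold change 0.27 ± 0.11, edgeR unadjusted p = 0.0455, adjusted p = 0.472). The number of CD8A reads per CD4 read was 1.38, 1.47 and 1.39 in CT and 2.02, 2.44 and 1.79 in MP_FOS, again without overlap. Each MP_FOS library, replicate 1 included, thus had more CD8A reads per CD4 read than any CT library.

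CD28 (ENSGALG00000008669), the costimulatory receptor of most resting T cells, had 12.6, 12.1 and 14.9 CPM in CT and 10.6, 12.3 and 22.6 CPM in MP_FOS. Only MP_FOS replicate 3 stood above the CT range, and without that library the log2 fold change went from 0.20 to −0.20. ICOS (ENSGALG00000008656), a costimulatory receptor that T cells gain on activation, had 43.7, 39.5 and 47.3 CPM in CT and 42.0, 39.6 and 58.1 CPM in MP_FOS. It had the same shape as CD28, with replicate 3 highest, and its log2 fold change of 0.10 ± 0.17 (edgeR adjusted p = 0.867) became −0.09 without that replicate.

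CTLA4 (ENSGALG00000008666), the inhibitory relative of CD28, had 8.35, 6.78 and 9.03 CPM in CT, or 117 to 170 reads a library. In MP_FOS it had 9.85, 22.4 and 14.5 CPM, or 165, 378 and 172 reads. Replicate 1 lay just above the highest CT library and replicate 2 was farthest from CT, so the diets did not overlap but the gap was narrow. The log2 fold change was 0.95 ± 0.31 (edgeR unadjusted p = 0.0172, adjusted p = 0.45; DESeq2 adjusted p = 0.171). It was 0.49 when the pair of libraries lacking W transcripts was dropped, and 0.59 when MP_FOS replicate 2 alone was. In the reference annotation CTLA4 lies between ICOS and CD28 on chromosome 7, and a non-coding locus overlaps one end of it, so some reads could belong to that locus if the counting did not use strand.

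CD274 (ENSGALG00000015032) had the largest log2 fold change of the 10 genes with all 6 libraries, though not without CT replicate 2 (1.78, against 2.03 for GZMA) nor without both libraries that lack W transcripts (1.55, against 1.84). It had 12.6, 11.4 and 16.1 CPM in CT and 15.5, 64.6 and 69.3 CPM in MP_FOS. Replicate 1 of MP_FOS lay within the CT range, and replicates 2 and 3 lay about equally far above it. The log2 fold change was 1.89 ± 0.51, with an adjusted p of 0.445 in edgeR and of 0.0144 in DESeq2. Without MP_FOS replicate 1 it was 2.31 and passed in edgeR (adjusted p = 0.0137), as did 1.59% of all genes in that fit, but the library left out was the one with the least CD274 of its diet. With both libraries that lack W transcripts left out the log2 fold change was 1.55 (edgeR adjusted p = 0.723). Against the mean log2 level of the other two of its diet, the library without W transcripts differed in CD274 by −0.32 in CT and by 0.96 in MP_FOS, where it lay between the low replicate 1 and replicate 3.

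GZMA (ENSGALG00000013548), the granzyme that cleaves after basic residues, had 108, 310 and 126 CPM in CT and 175, 604 and 660 CPM in MP_FOS. CT replicate 2 exceeded MP_FOS replicate 1, so the diets overlapped, and within each diet the spread was large. The log2 fold change was 1.40 ± 0.57 (edgeR unadjusted p = 0.0432, adjusted p = 0.471; DESeq2 adjusted p = 0.425). It was 2.03 without CT replicate 2, and 1.84 when MP_FOS replicate 2 was dropped as well, so that no library lacked W transcripts. The library without W transcripts exceeded the mean log2 level of the other two of its diet by 1.40 in CT and by 0.83 in MP_FOS, more than the Z-linked medians given above, but in MP_FOS it lay below replicate 3 and only replicate 1 was low. The reference annotation places GZMK, another granzyme gene, within the span of GZMA, so that the split of reads between them is uncertain. GZMK, named here for that overlap, had 35.3, 44.2 and 26.7 CPM in CT and 31.5, 51.4 and 46.9 CPM in MP_FOS.

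EOMES (ENSGALG00000027247), a T-box factor of cytotoxic and memory lymphocytes, ran against GZMA across the libraries. It had 18.3, 13.7 and 26.2 CPM in CT and 27.3, 9.56 and 8.77 CPM in MP_FOS. The MP_FOS libraries with the most GZMA, replicates 2 and 3, had the least EOMES of the 6, and CT replicate 2 had the most GZMA and the least EOMES of its diet. The log2 fold change was −0.35 ± 0.47 (edgeR adjusted p = 0.817), and −1.09 without MP_FOS replicate 1 (adjusted p = 0.134). Over the 6 libraries, GZMA reads per EOMES read were 5.91, 22.6 and 4.81 in CT and 6.41, 63.1 and 75.3 in MP_FOS.

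IL2RA (ENSGALG00000042471) had 10, 8.87 and 13.4 CPM in CT and 10, 12.6 and 16.3 CPM in MP_FOS. The diets overlapped, and only MP_FOS replicate 3 exceeded the CT range (log2 fold change 0.26 ± 0.25, edgeR adjusted p = 0.722).

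**Figure D2:**
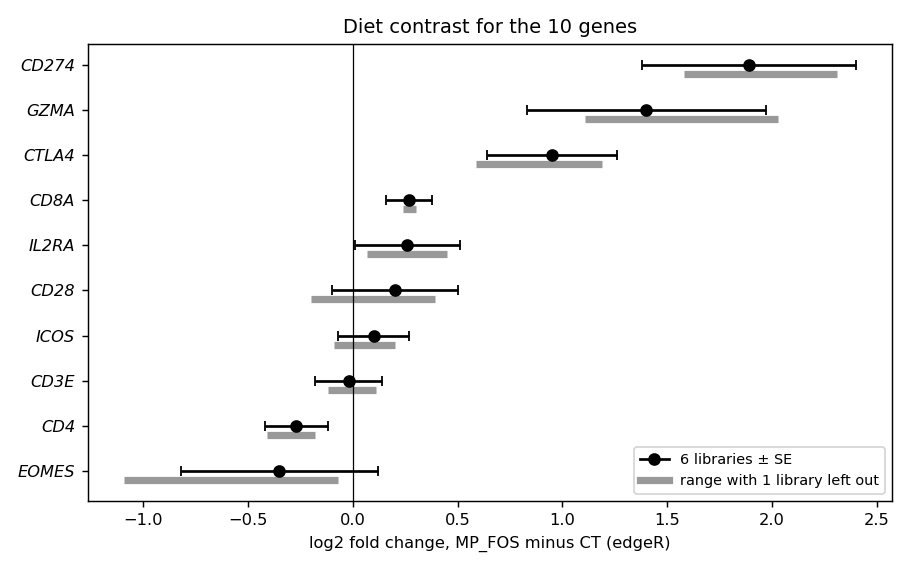
Log2 fold change, MP_FOS minus CT, of the 10 genes in edgeR (horizontal axis), with points for all 6 libraries, error bars of 1 SE and grey bars for the range when each library is left out in turn. CD274, GZMA and CTLA4 stay at 0.59 or above in every such fit, whereas CD3E, CD28 and ICOS change sign.

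The genes were also ordered by level per length of transcript. By mean FPKM (the authors' values, scaled to transcript length) CD3E led in CT at 246 ± 20.2 (SD, n = 3), followed by GZMA at 180 ± 107, CD8A at 31.5 ± 2.77, ICOS at 23.4 ± 2.53 and CD4 at 15.3 ± 1.28. The CT libraries of CD3E and GZMA overlapped, whereas each step from GZMA down to IL2RA was free of overlap. IL2RA at 9.65 FPKM, CD274 at 6.7, EOMES at 6.1, CD28 at 5.6 and CTLA4 at 5.13 each overlapped the next in order. In MP_FOS, GZMA stood first at 451 ± 253 FPKM and CD3E second at 231 ± 41.1, with overlap. CD274 moved from the seventh to the fifth place at 22.4 ± 13.3 FPKM and overlapped both neighbours, ICOS and CD4. CTLA4 moved from the last place to the eighth at 9.4 ± 3.68 FPKM and EOMES from the eighth to the last at 4.53 ± 3.10 FPKM, and from ICOS down each gene overlapped the next. CD3E lay above 98.1% of the tested genes in CT by FPKM, and CTLA4 above 29.8%.

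Set against CD3E in the same library, 7 of the 9 other genes exceeded every CT library in both MP_FOS replicates 2 and 3. As a ratio of diet means, the excess was largest in CD274, GZMA and CTLA4. The exceptions were EOMES and CD4, and CD4 lay below the CT range in all MP_FOS libraries. In MP_FOS replicate 2, CD3E was at its lowest of all libraries (367 CPM). ICOS, CD28 and IL2RA (39.6, 12.3 and 12.6 CPM) lay within their own CT ranges there, so their ratios exceeded CT in that library through the low CD3E level. These read ratios are not corrected for transcript length and are compared only between libraries, and none of the 12 ratios computed was tested. CTLA4 reads per 100 CD3E reads were 1.86, 1.58 and 1.86 in CT and 1.94, 6.12 and 3.06 in MP_FOS. CD274 reads per 100 CD3E reads were 2.81, 2.65 and 3.33 in CT and 3.05, 17.6 and 14.6 in MP_FOS. GZMA reads per 100 CD3E reads were 24.2, 72.1 and 25.9 in CT and 34.6, 164 and 139 in MP_FOS. In all 3 genes replicates 2 and 3 of MP_FOS exceeded every CT library, and replicate 1 stood at or near the CT range. ICOS reads per 100 CD3E reads stayed within 9.2 to 9.75 in CT and ran from 8.28 to 12.3 in MP_FOS. CD4 reads per 100 CD3E reads were lower in each MP_FOS library (5.25, 6.54 and 6.97) than in any CT library (7.25 to 7.55). The diets were free of overlap in 3 of the 12 ratios, namely CTLA4 to CD3E, CD4 to CD3E and CD8A to CD4. The ratios share genes and so are not independent. No share of ratios without overlap was computed over other genes, so this count is only a description.

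**Figure D3:**
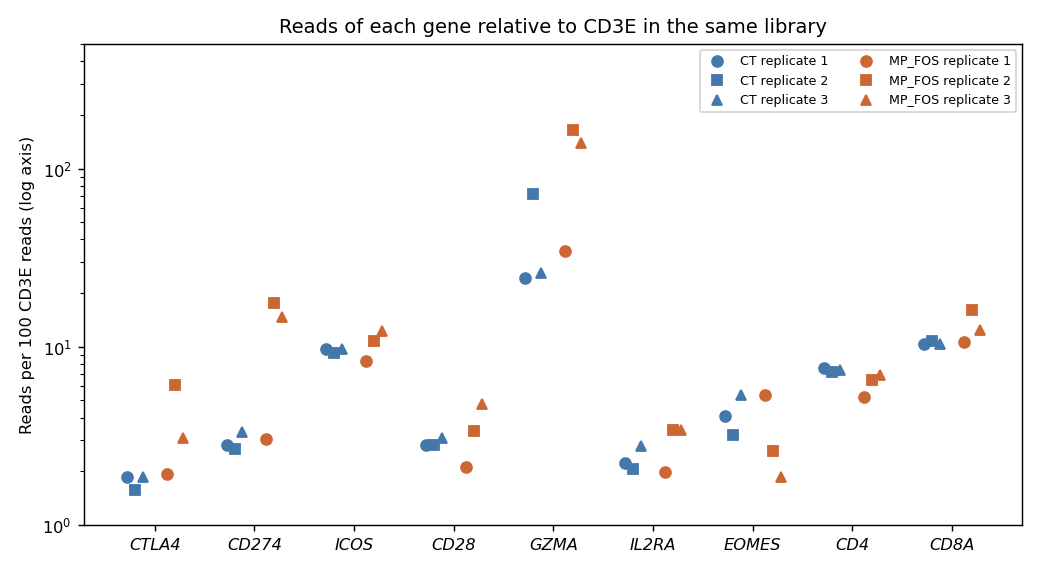
Reads of 9 genes per 100 CD3E reads in the same library (log axis) for each CT and MP_FOS replicate. All genes but EOMES and CD4 stand above every CT library in MP_FOS replicates 2 and 3, and EOMES is lowest there. In MP_FOS replicate 2 the CD3E level is the lowest of all libraries, and ICOS, CD28 and IL2RA lie within their CT ranges in CPM.

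The same contrast was taken as an index, the mean log2 CPM of the 7 checkpoint, costimulation and effector genes minus that of CD3E, CD4 and CD8A. It was −2.18, −2.07 and −2.0 in CT and −1.97, −1.24 and −1.34 in MP_FOS, a difference of means of 0.56 with no test, since the genes were chosen. MP_FOS replicate 1 lay just above the highest CT library and the other MP_FOS libraries farther above it. With CD3E alone as the reference, replicate 1 fell within the CT range (−4.47, against −4.51 to −4.34), as it did with medians over genes (−1.8, against −1.92 to −1.63). With 18 T cell receptor and signalling genes as the reference, replicate 1 lay below every CT library (−1.09, against −0.95 to −0.93). Without CD274, which presenting or epithelial cells can carry, the difference was 0.38, and replicate 1 lay just above CT (−1.88, against −2.07 to −1.9). The costimulation and checkpoint genes alone, CD274 included, differed by 0.70 with overlap of the diets. The effector and activation genes alone differed by 0.38 without overlap. In a grouping made after the values were seen, the index of CTLA4, CD274 and GZMA differed by 1.30. That of ICOS, CD28, IL2RA and EOMES differed by 0.00. The grouping followed the fold changes, so this split is only a description. The value of 0.00 averages EOMES (log2 fold change −0.35) with ICOS (0.10), CD28 (0.20) and IL2RA (0.26), which went the other way.

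A wider set of 9 lists of T cell pathway genes, with 4 lists of markers of other cell types, gives the setting. In edgeR, 0 of their 129 tested genes passed (adjusted p under 0.05), as did 0.0% of all genes tested. DESeq2 called 1 of them, IL22, which is near its background of 0.778% of the genes with an adjusted p. Over all tested genes the median log2 fold change was 0.01. The diets did not overlap in 16.7% of all tested genes (8.2% higher, 8.49% lower in MP_FOS), the background for the counts below. In the list of T cell receptor and signalling genes, 8 of 18 tested genes were higher and 10 lower in MP_FOS, with a median of −0.03 and no gene free of overlap. CD3D, a partner chain of CD3E, had 220, 215 and 223 CPM in CT and 269, 136 and 133 CPM in MP_FOS, so that replicate 1 lay above CT and the others below. CD247, the zeta chain, had 69.6 ± 6.45 and 68.8 ± 13.1 CPM (SD, n = 3), and CD8B, the CD8 beta chain (CD8BP in RefSeq), had 19.7 ± 5.59 and 24.6 ± 8.03 CPM. Summed over the 18 genes, CPM ran from 1330 to 1470 in CT and from 1100 (replicate 2) to 1550 (replicate 1) in MP_FOS.

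Among 10 further tested costimulatory and checkpoint receptors, 6 had higher means in MP_FOS, with a median log2 fold change of 0.16. LAG3, an inhibitory receptor that binds class II molecules, had 10.5, 7.01 and 11.3 CPM in CT and 8.3, 23.1 and 30.2 CPM in MP_FOS. It resembled CD274 in that replicates 2 and 3 stood above CT and replicate 1 did not (log2 fold change 1.09 ± 0.45, edgeR adjusted p = 0.471). TNFRSF9, a costimulatory receptor also called 4-1BB, had 18.8, 26.4 and 25.7 CPM in CT and 38.9, 27.1 and 46.9 CPM in MP_FOS, without overlap (log2 fold change 0.67 ± 0.23, edgeR adjusted p = 0.456). PDCD1, the receptor of CD274, had 18.5, 8.93 and 16.4 CPM in CT and 16.8, 20.6 and 27.7 CPM in MP_FOS.

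The ligands on presenting cells had the highest median of the 9 pathway lists (log2 fold change 0.52). All 7 tested genes of the list, which excludes CD274, had a log2 fold change at or above 0, and 1 of them (CD40) was free of overlap. PDCD1LG2 (PD-L2), which neighbours CD274 on the Z chromosome in the reference annotation and is the other ligand of PDCD1, had 23.8, 35.2 and 23.5 CPM in CT and 28.5, 218 and 112 CPM in MP_FOS. Like CD274 it stood high in MP_FOS replicates 2 and 3 alone (log2 fold change 2.12 ± 0.64, edgeR adjusted p = 0.445). Unlike CD274, it was highest in each diet (35.2 and 218 CPM) in replicate 2, the library without W transcripts. PDCD1LG2 passed in edgeR without MP_FOS replicate 1 (adjusted p = 0.0296), as did 1.59% of all genes in that fit. The library left out was the one with the least PDCD1LG2 of its diet. CD80 (CD88 in RefSeq) and CD86, which both CD28 and CTLA4 bind, had 36.8 ± 6.15 and 2.09 ± 0.977 CPM in CT against 52.9 ± 20.6 and 3.41 ± 1.17 CPM in MP_FOS. ICOSLG, the ligand of ICOS, had 60.4 ± 4.59 against 69.5 ± 29.4 CPM, and CD40, which takes the T cell signal CD40LG, had 26.0 ± 2.66 against 35.4 ± 5.64 CPM.

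Cytotoxic and natural killer cell genes other than GZMA and EOMES had 12 of 14 tested members higher (median log2 fold change 0.30), none of them free of overlap. Relative to the mean log2 level in CT, the list's median was −0.2, 0.12 and 0.13 in CT and 0.15, 0.09 and 0.58 in MP_FOS. Only MP_FOS replicate 3 thus stood clearly above CT. Replicate 2, though high in GZMA, lay within the CT range, also in summed CPM (2600, against 2410 to 3020 in CT). IFNG, the cytokine that induces CD274, was rare, with 5, 9 and 19 reads in CT and 7, 52 and 45 reads in MP_FOS. Its reads thus stood high in the same libraries as CD274 (log2 fold change 1.96 ± 0.81, edgeR adjusted p = 0.471). A link of CD274 with IFNG, or with IRF1 and SOCS1 below, was not tested. PRF1, the pore-forming perforin, here an assembled locus that the table gives this symbol, had 26.2 ± 6.85 against 37.5 ± 12.6 CPM, and TBX21, a T-box factor related to EOMES, had 35.8 ± 7.92 against 42.8 ± 6.58 CPM. Among genes of interferon gamma signalling and response, 8 of 10 were higher with a median of 0.38. The 10 include the receptor chains IFNGR1 and IFNGR2 and the kinase JAK2, which carry the signal (log2 fold changes 0.28, 0.24 and −0.08), and CXCR4 (0.06). The count is thus not one of responding genes alone. IRF1, a transcription factor that acts on CD274, had 255, 260 and 323 CPM in CT and 301, 686 and 735 CPM in MP_FOS. SOCS1, which damps the same signal, had 14.1, 11.2 and 21.0 CPM in CT and 13.3, 76.7 and 64.1 CPM in MP_FOS. Both genes passed in edgeR without MP_FOS replicate 1 (adjusted p = 0.0287 and 0.0296). In that fit 4 of the 10 genes of the list passed, against 1.59% of all genes. The library left out was the one with the least IRF1 and SOCS1 of its diet.

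**Figure D4:**
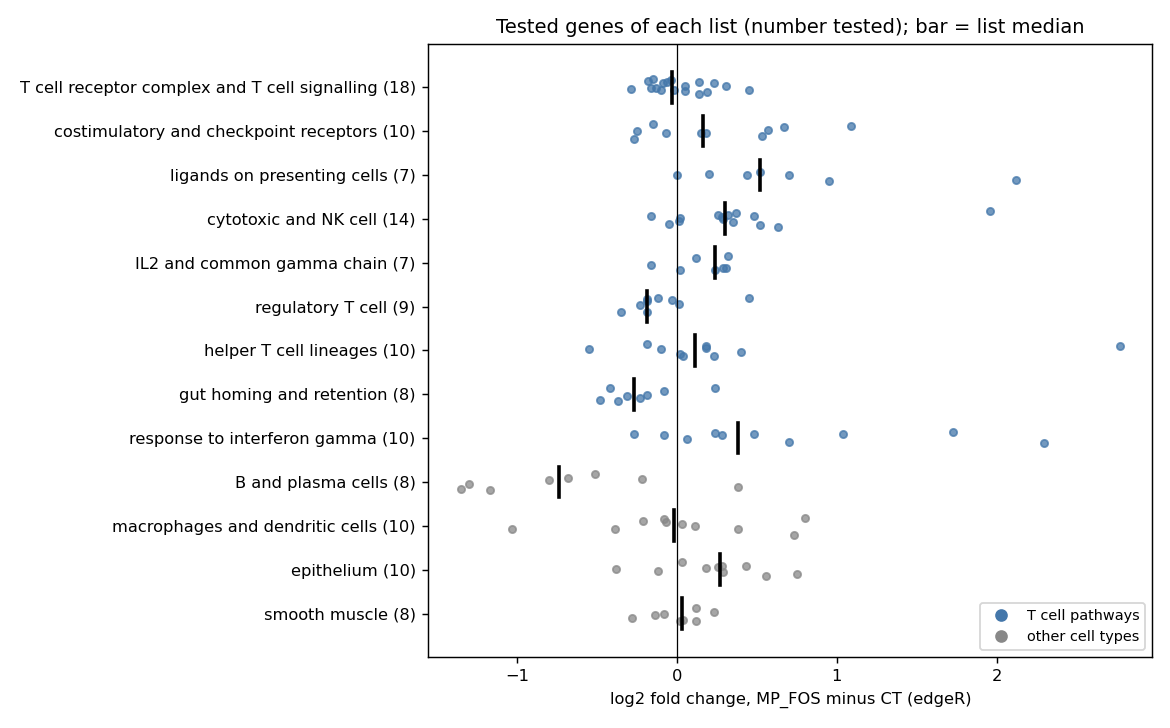
Log2 fold change, MP_FOS minus CT (edgeR, horizontal axis), of each tested gene in 9 T cell pathway lists and 4 lists of other cell types, with a black bar at each list's median. T cell receptor and signalling genes cluster about 0 (median −0.03), ligands on presenting cells lie at or above 0 (median 0.52), and B cell genes lie mostly below it (median −0.74).

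The interleukin 2 and common gamma chain list had 6 of 7 tested genes higher (median log2 fold change 0.24). IL2RB and IL2RG, the chains that complete the receptor with IL2RA, had 70.5 ± 4.58 and 93.7 ± 17.2 CPM in CT against 76.4 ± 7.90 and 95 ± 13.2 CPM in MP_FOS. The cytokine IL2 itself had 0 to 3 reads in a library and was not tested. STAT5B (STAT5A in RefSeq), which carries the receptor's signal, had 227 ± 11.9 against 283 ± 35.6 CPM, and IL4R had 60.0 ± 1.10 against 73.6 ± 12.8 CPM. Both genes were higher in MP_FOS without overlap between the diets, as were 8.2% of all genes tested.

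Regulatory T cell genes other than CTLA4 and IL2RA had 7 of 9 tested members lower (median log2 fold change −0.19). CTLA4 and IL2RA themselves had log2 fold changes of 0.95 and 0.26. IL10, also in that list, had too few reads to be tested (2, 0 and 1 in CT and 1, 31 and 15 in MP_FOS). Of the homing and retention genes 7 of 8 were lower (−0.27), and of the helper lineage genes 7 of 10 were higher (0.11). The 7 lower homing genes include CCR7, S1PR1 and KLF2, genes of lymph node homing and exit from tissue. Their count thus does not describe gut homing or retention alone. The regulatory factor FOXP3 is not reported, because the row under that symbol carries the NCBI gene that RefSeq names FOXP1. BATF, a factor of activated T cells, had 15.3 ± 1.99 against 20.9 ± 3.72 CPM, and NT5E, which makes adenosine, 9.98 ± 0.504 against 7.82 ± 1.64 CPM. Of the homing genes, CCR6, the receptor of CCL20, had 12.8 ± 2.47 against 9.21 ± 1.83 CPM, and AHR (AHR1A in RefSeq), a sensor of dietary and bacterial compounds, 77.4 ± 1.09 against 66.2 ± 4.55 CPM. CCR9, a receptor of gut homing and the only higher gene of that list, had 4.08 ± 0.184 against 4.83 ± 0.458 CPM, without overlap. In the helper lists, BCL6, the factor of follicular helper cells, had 70.5 ± 7.69 against 92.8 ± 16.0 CPM. IL22, made by lymphocytes at epithelia, had 1.44, 2.84 and 2.97 CPM in CT and 5.13, 29.0 and 15.8 CPM in MP_FOS. Its adjusted p was 0.445 in edgeR and 0.000796 in DESeq2. IL22 was high in MP_FOS replicates 2 and 3, the libraries in which CD274 and GZMA were high.

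Markers of other cells are given beside these values, and their part in them was not tested. None of their tested genes passed in edgeR or DESeq2. B and plasma cell genes had 7 of 8 tested members lower (median log2 fold change −0.74), among them CXCR5 at 6.81 ± 2.66 against 2.68 ± 0.537 CPM and CD72 at 5.07 ± 1.82 against 2.06 ± 0.701 CPM. The summed CPM of the B cell list, mostly JCHAIN, was 939 to 1570 in CT and 970 to 1490 in MP_FOS. Macrophage and dendritic cell genes, of which some can carry CD274, had 5 of 10 higher (median −0.02), with C1QB at 46.9 ± 11.2 against 77.7 ± 15.9 CPM and LY86 at 51.7 ± 26.3 against 25.2 ± 5.35 CPM. Their summed CPM was 9030 to 9930 in CT and 7380 to 11300 in MP_FOS. Epithelial genes had 8 of 10 higher (median 0.27), with EPCAM at 1510 ± 265 against 2040 ± 331 CPM and the gene the table calls KRT20 (KRT40 in RefSeq) at 801 ± 175 against 1350 ± 333 CPM. Their summed CPM was 12800 to 16000 in CT and 12000 to 18100 in MP_FOS. They did not move as one. FABP2 had 693, 744 and 447 CPM in CT and 957, 243 and 249 CPM in MP_FOS. CDX2, counted as higher (log2 fold change 0.03), had 49.4, 86.7 and 74.2 CPM in CT and 129, 44.5 and 41.2 CPM in MP_FOS. Both were thus lowest in MP_FOS replicates 2 and 3, the libraries in which CD274 and GZMA were high. Smooth muscle genes had 5 of 8 higher (median 0.03), with MYH11 at 1760 ± 337 against 1450 ± 376 CPM and CNN1 at 343 ± 73.1 against 401 ± 144 CPM, and their summed CPM was 5930 to 8360 in CT and 5610 to 8720 in MP_FOS. No defining marker of these 4 lists that the table holds was at 0 in all libraries.

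Genes whose log2 CPM followed a member most closely over the 6 libraries are given as a description, since 6 points that share library and diet give high correlations by their number alone. For CD3E the closest 3 of 10587 genes of at least 5 CPM were LOC770794, PTGS2 and RPL36AL (Pearson r = 0.99 each). For CTLA4 they were RAB1A (0.996), RNF19B (0.995) and POLR3E (0.993), and for GZMA they were KIAA1524 (0.987), RIOX1 (0.987) and CDC23 (0.985). RNF19B, a ubiquitin ligase, had 21.7, 15.1 and 24.1 CPM in CT and 26.0, 65.2 and 40.5 CPM in MP_FOS, the same order of MP_FOS libraries as CTLA4.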

How the data were processed

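RNA of 6 ileum libraries was analysed from a deposited gene table that holds, per the file headers, estimated counts (expected counts, 7.98% of them not whole) and FPKM, both computed by the authors. Per the submitters' processing notes, which give no roles, the tools were DESeq2, StringTie, HISAT2, Bowtie2 and fastp 0.18.0. Which genome build was used, how reads were counted and whether strand was used is not given in the sources used here. A kit for small RNA libraries is named in the labels' protocol.

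MP_FOS was compared with CT on the rounded counts by edgeR 4.0.16 in R 4.3.3 (filterByExpr by group, TMM factors, two-sided quasi-likelihood F test), and p-values of 13774 genes were adjusted together by Benjamini-Hochberg (threshold 0.05). Standard errors come from F, as the log2 fold change over its square root. The common dispersion in edgeR corresponds to a coefficient of variation of 0.264. Printed CPM are TMM-normalised, and means carry an SD over 3 libraries. DESeq2 1.42.0 and limma 3.58.1 were alternatives; DESeq2 gave no adjusted p for 282 genes. The edgeR code was tested on simulated counts.

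The members and the gene lists were chosen with earlier results of these data known, so list counts and medians are descriptions. Of each list, the 2 tested genes with the smallest p are named, with fixed partners (CD80, CD86, ICOSLG, PDCD1, PDCD1LG2, IL2, IL2RB, IL2RG, IFNG, PRF1, TBX21, CD3D and CD247) and the 3 genes most correlated (log2 of CPM plus 0.5) with CD3E, CTLA4 and GZMA. Some further list genes, such as CCR9, FABP2 and CDX2, were named after their values were seen. Symbols that the file leaves blank were taken from the RefSeq gene table (GRCg7b) by NCBI gene identifier, which also gave chromosomes and neighbours.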

Additional observations from a re-analysis of the deposited data

How the results depend on the processing

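The count of genes past the threshold in edgeR was 0 of 13774, and 0 of the 10 members, and both stayed at 0 under DESeq2 size factors, upper-quartile factors, no filter or a stricter one, a robust fit, limma-voom, limma-trend on FPKM, an adjusted p of 0.1, W transcripts as a covariate and the replicate block. DESeq2 called 105 genes (69 higher, 36 lower) and 1 member, CD274. With both libraries that lack W transcripts left out, 1 gene and 0 members passed. With 1 library left out, 0 to 223 genes and 0 to 1 members passed, and the highest counts came without MP_FOS replicate 1. The labels do not say whether the replicate numbers pair the samples, and the values cannot decide it. Deviations of same-numbered libraries correlated by 0.018, 0.279 and 0.156, against −0.234 to 0.122 for libraries of unlike number. The value of 0.279 belongs to replicate 2 of each diet, and both of these libraries lack W transcripts. The replicate block left 0 genes and 0 members, as did the fit without it. CD4, CD8A, CTLA4, CD274, GZMA, EOMES and IL2RA kept their direction under all 18 alternatives. CD3E turned to 0.08 with both libraries that lack W transcripts left out, to 0.03 without CT replicate 3 and to 0.11 without MP_FOS replicate 2; its range with 1 library left out was −0.12 to 0.11. CD28 ranged from −0.20 to 0.39 and ICOS from −0.09 to 0.20 in the same way, both below 0 without MP_FOS replicate 3. The cause of these shifts was not tested. The difference in the index ran from 0.29 (median over genes) to 0.79 (without MP_FOS replicate 1), and from 0.42 to 0.79 with 1 library left out. In alternatives chosen after seeing the data, the median of the T cell receptor list was 0.07 when the pair of libraries lacking W transcripts was dropped and −0.13 when MP_FOS replicate 1 was dropped. In the same order, the regulatory T cell list went from −0.19 to −0.08 and −0.13, and the epithelial list from 0.27 to 0.08 and 0.38. Depth limits genes of few reads, such as IFNG (5 to 52 reads) and CD86 (22 to 61).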

Other observations

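Of the rare cytokines that did not pass the low-count filter, IL10 and IL26, singled out after their values were seen, had most reads in the libraries with high CD274. IL2, IL7, IL21 and IL13 did not (IL7 had 3, 8 and 10 reads in CT and 10, 0 and 3 in MP_FOS). IL17A and IL17F had most reads in MP_FOS replicate 2 (16 and 17). In replicate 3 (2 and 6) they did not exceed CT replicate 3 (6 and 7). IL10, which restrains inflammation, was read 2, 0 and 1 times in CT (in replicate order) and 1, 31 and 15 times in MP_FOS. IL26, a relative of IL10 and IL22 that lies near IFNG and IL22 in vertebrate genomes and is here an assembled locus with this symbol, had 4, 3 and 5 reads in CT and 4, 39 and 24 reads in MP_FOS. GBP, an interferon-induced GTPase, also singled out after its values were seen, had 14.2, 23.4 and 43.8 CPM in CT and 15.8, 205 and 181 CPM in MP_FOS. It did not pass with all 6 libraries (edgeR adjusted p = 0.464) and passed without MP_FOS replicate 1 (adjusted p = 0.0398), as did 1.59% of all genes. The library left out was the one with the least GBP of its diet.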
